A study of Caenorhabditis elegans with 2 samples.

Results

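AKIR-1, the worm akirin, was mapped by chromatin immunoprecipitation in Caenorhabditis elegans, and the peaks described here are the 685 strong ones that lay at the start of protein-coding genes pointing in a single direction. They were chosen by the pooled signal value and by position: of the 4000 pooled peaks with the highest signal, 685 (17.1%) were off the mitochondrial genome, had their summit 500 bp upstream to 100 bp downstream of a protein-coding start on 1 strand only, and had no tRNA, snoRNA or snRNA gene start within 500 bp. Of the rest of the 4000, 2859 lay at no such start, 333 lay near a small RNA start, 106 lay at divergent promoters with starts on both strands, and 17 were mitochondrial. Because signal and location chose these peaks, neither is a finding. The 3780 pooled peaks that met the same location rule with a lower signal are called weaker peaks and serve as the comparison.

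The worms were of strain IG1654, which carries frSi12, an insertion on chromosome II of the construct pNP157(akir-1p::AKIR-1::GFP), so that the akir-1 promoter drives AKIR-1 with a GFP-FLAG tag at its C terminus. Whole animals of both sexes were pooled as young adults of 70 hours, after synchronization by bleaching and starvation as L1 larvae, and sonicated chromatin was precipitated with an antibody against GFP. There was 1 group of 2 biological replicates, numbered 3 and 4, with no second condition, so a peak cannot be assigned to any one tissue. The deposited lists give positions and scores on ce11 and no read counts, so the depth behind each peak is unknown.

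Akirins are small nuclear proteins, conserved across animals, that have no known DNA-binding domain of their own and act in transcription together with sequence-specific factors and chromatin remodelling complexes. Worms that lack akir-1 function do not fully switch on antimicrobial peptide genes when a fungus infects their skin. A promoter is the stretch around a gene's start where the transcription machinery assembles, and in C. elegans the annotated start is often the site where a spliced leader is joined to the RNA, downstream of where transcription began.

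The summits of the strongest peaks show what kind of sequence was recovered. The 6 below are the strongest whose window of 75 bp on either side of the summit overlapped no annotated exon, read 5′ to 3′ on the strand of the gene from the RefSeq sequence of WBcel235, the same build as ce11. Capitals mark GAGAGA or TCTCTC, CTGCGTCT or its reverse complement, and CCGCCC or GGGCGG. They belong to rpl-3 (chrIII:3867474-3867624, plus strand), mog-4 (chrII:14561765-14561915, minus), rpl-35 (chrIII:7854603-7854753, plus), ntl-2 (chrII:4376833-4376983, minus), Y62F5A.12 (chrII:11534730-11534880, minus) and eelo-2 (chrIV:17249850-17250000, plus).
rpl-3: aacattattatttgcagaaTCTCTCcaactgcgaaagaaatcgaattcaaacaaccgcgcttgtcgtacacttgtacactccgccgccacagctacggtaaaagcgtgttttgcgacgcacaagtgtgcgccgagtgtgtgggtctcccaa
mog-4: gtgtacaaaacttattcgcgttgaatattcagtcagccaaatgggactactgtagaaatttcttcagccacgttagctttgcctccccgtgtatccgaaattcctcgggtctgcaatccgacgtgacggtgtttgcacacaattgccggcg
rpl-35: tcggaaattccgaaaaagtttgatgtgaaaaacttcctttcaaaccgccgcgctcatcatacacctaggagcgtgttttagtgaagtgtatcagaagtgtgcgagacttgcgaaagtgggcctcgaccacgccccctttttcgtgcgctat
ntl-2: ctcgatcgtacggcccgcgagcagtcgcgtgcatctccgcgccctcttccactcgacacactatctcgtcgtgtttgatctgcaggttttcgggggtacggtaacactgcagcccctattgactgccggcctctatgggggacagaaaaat
Y62F5A.12: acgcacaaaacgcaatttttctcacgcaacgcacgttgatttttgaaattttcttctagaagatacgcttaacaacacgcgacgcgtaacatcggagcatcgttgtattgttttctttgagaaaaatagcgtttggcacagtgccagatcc
eelo-2: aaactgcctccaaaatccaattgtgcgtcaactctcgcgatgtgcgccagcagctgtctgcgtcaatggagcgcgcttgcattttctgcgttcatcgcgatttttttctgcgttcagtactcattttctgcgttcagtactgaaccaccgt
Of these 6 windows only that of rpl-3 holds a marked word. GC content ran from 41.7% at Y62F5A.12 to 58.3% at ntl-2. In the windows of mog-4 and Y62F5A.12, 49.1% and 76.7% of the 36-base words also occur elsewhere in the genome, so reads there could have come from more than 1 place.

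The next 5 are shown because GAGAGA was the 6-base word with the largest excess at the strong peaks over the weaker ones. With rpl-3 they are the 6 strongest peaks that hold the word under the same conditions, a set chosen after the values were seen. They belong to epg-7 (chrX:7334393-7334543, plus), zfp-3 (chrX:1446922-1447072, minus), sec-61.G (chrV:10897306-10897456, minus), pab-2 (chrX:13527483-13527633, minus) and cnk-1 (chrIII:10270911-10271061, plus).
epg-7: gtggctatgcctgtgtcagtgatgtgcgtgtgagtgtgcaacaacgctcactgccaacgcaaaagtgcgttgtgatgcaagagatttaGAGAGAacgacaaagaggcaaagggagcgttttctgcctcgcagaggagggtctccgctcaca
zfp-3: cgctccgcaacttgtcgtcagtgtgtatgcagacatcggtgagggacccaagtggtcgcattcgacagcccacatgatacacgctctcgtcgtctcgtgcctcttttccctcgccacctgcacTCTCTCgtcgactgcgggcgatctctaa
sec-61.G: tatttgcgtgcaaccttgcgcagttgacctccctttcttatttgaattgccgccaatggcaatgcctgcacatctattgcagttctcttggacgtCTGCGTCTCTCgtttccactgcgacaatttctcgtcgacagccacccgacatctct
pab-2: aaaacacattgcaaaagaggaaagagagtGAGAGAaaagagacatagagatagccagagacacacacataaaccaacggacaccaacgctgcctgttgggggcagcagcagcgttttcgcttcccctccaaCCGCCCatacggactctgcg
cnk-1: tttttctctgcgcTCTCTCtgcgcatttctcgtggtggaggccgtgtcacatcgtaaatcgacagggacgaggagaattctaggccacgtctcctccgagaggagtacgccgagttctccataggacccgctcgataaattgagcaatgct
In the sec-61.G window CTGCGTCT and TCTCTC overlap and share bases. A match is a description of letters and not a binding site.

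Single promoters took a larger share of the peaks as signal rose, within the 4000. Of the 384 nuclear peaks ranked 1 to 400, 90 lay at a single promoter (23.4%, 95% Wilson interval 19.5 to 27.9). The share was 20.03% (17.02 to 23.4) at ranks 401 to 1000, 17.9% (15.6 to 20.4) at ranks 1001 to 2000 and 14.8% (13.3 to 16.4) at ranks 2001 to 4000. From there to rank 30000 it stayed between 14.1% and 15.1%. In each replicate's own list the share was likewise higher among the 400 strongest, at 20.6% in replicate 3 and 25.1% in replicate 4, than among peaks below the 4000 strongest, at 14.6% and 14.9%. The rise was not particular to single promoters. Divergent promoters changed more steeply in the pooled list, with 36 of the 384 nuclear peaks at ranks 1 to 400 and 21 of 599 at ranks 401 to 1000. They were 19 of 1000 at ranks 1001 to 2000 and 30 of 2000 at ranks 2001 to 4000. Intervals cover counting error over peaks only.

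**Figure D1:**
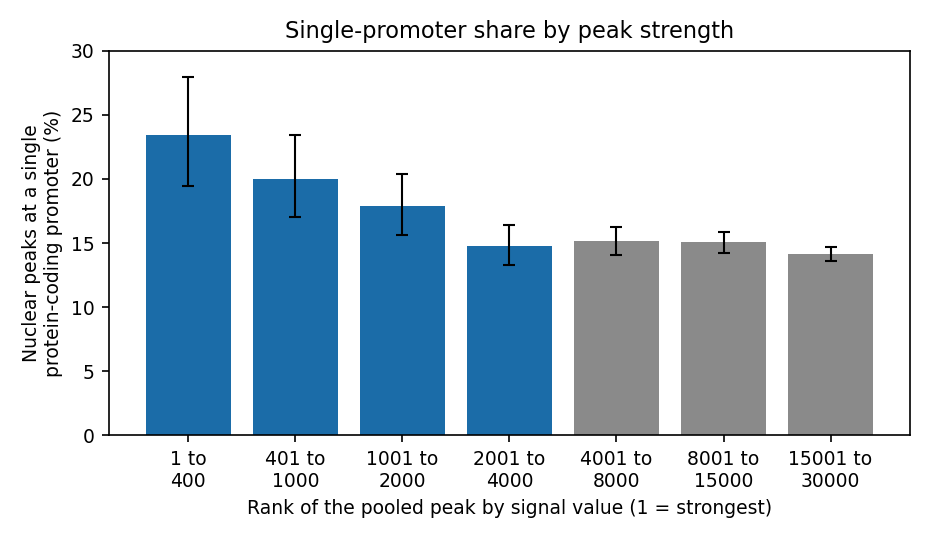
Share of nuclear pooled peaks at a single protein-coding promoter (vertical axis, %) by rank of signal (horizontal axis), blue for the 4000 strongest and grey for weaker peaks, with 95% Wilson intervals. The share is 23.4% at ranks 1 to 400 and 14.8% at ranks 2001 to 4000, the level of the weaker peaks.

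Strong here means rank, not a low error rate. Pooled signal, in the authors' own unit, ran from 63.1 to 373 with a median of 76.02. The deposited q-values ran from 0.0264 to 0.5004 with a median of 0.294. At the weaker peaks that serve as the comparison they ran from 0.501 to 0.802, with a median of 0.727. The list that the authors thresholded by IDR, a measure of how well ranks reproduce between replicates, held the 400 highest pooled signals. Listed peaks could still rank far apart, as hmg-1.1 did, at 138 in replicate 3 and 12118 in replicate 4. Of the 685, 90 were in the list (13.1%, where the background over the 3983 nuclear peaks of the 4000 is 9.64%). The share was 34.0% at strong divergent promoters and 5.32% at strong peaks with no start. Those 90 had signals of 108 to 373 and the other 595 had 63.1 to 107.75. Values were continuous across the limit of 4000. Just inside lay Y54G2A.11 at 63.16 and F41C3.8 at 63.12, and just outside a peak at K04A8.1 and one at kin-1, both at 63.10.

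The strongest of all lay at tasp-1, which encodes a threonine aspartase of the taspase family. Its pooled signal was 373, with 216 in replicate 3 and 162 in replicate 4, and its summit was 60 bp upstream of the start (chrIII:10759196-10759319). The replicate lists each have their own scale, so only ranks compare between them, and this peak ranked 10 in replicate 3 and 21 in replicate 4. Next came rpl-3, a protein of the large ribosomal subunit, at 256 pooled, 132 and 128, ranked 23 and 33, with the summit 305 bp upstream. K10D2.5 had 237 pooled, 127 and 97.0, with the summit 25 bp upstream. All 3 were high in both replicates.

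The peak of mog-4, an RNA helicase first known from the switch from sperm to oocytes, had a pooled signal of 217, with 120 in replicate 3 and 97.6 in replicate 4. At dnj-13, a DnaJ co-chaperone, the values were 216, 118 and 97.3, and the summit lay in an intron of another gene 225 bp upstream. The second large-subunit protein gene, rpl-35, had 214, 118 and 90.4, with the summit 456 bp upstream. Of the 12 strongest, ntl-2, a subunit of the CCR4-NOT complex that removes poly(A) tails, and Y73B6BL.29 were the members that ranked higher in replicate 4 (41 and 65) than in replicate 3 (70 and 155). The rest of the 12 were epn-1, the endocytic adaptor epsin (186, 109 and 84.4), egl-30, a G protein alpha subunit of the Gq class (186, 108 and 73.5), Y62F5A.12 (185, 96.2 and 86.1) and T13C5.6 (175, 88.1 and 79.8). The egl-30 summit was also in the promoter of C53H9.4 on the same strand.

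Taken over all 685 peaks, summit positions were close to what the window of the rule sets. The summit lay a median of 178 bp upstream of the start (quartiles 48 to 305), and 581 summits (84.8%) were upstream and 104 at or downstream of it, where the window itself is 83.3% upstream. Weaker peaks had a median of 169 bp and 81.0% upstream. The median moved with the window, to 106.5 bp for a promoter of 250 and 50 bp and to 282 bp for one of 1000 and 200 bp, so neither value is a finding. The bins of 100 bp held 81 summits at 500 to 400 bp upstream, 99 at 400 to 300, 131 at 300 to 200, 130 at 200 to 100, 140 in the last 100 bp, and the 104 downstream. The position was thus broad, with no single preferred distance.

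The 90 peaks of the IDR-thresholded list, that is the top of the signal range, were almost all upstream. Only 2 of them (2.22%, 0.612 to 7.74) had the summit at or downstream of the start, against 102 of the other 595 (17.1%, 14.3 to 20.4) and 717 of the 3780 weaker peaks (19.0%, 17.8 to 20.2). The step lay at the very top, since the share was already 15.8% at ranks 401 to 1000 and 16.8% at ranks 1001 to 2000. The exceptions were gei-4, 12 bp downstream at a signal of 148, and Y49A3A.3, 74 bp downstream at 113. Each replicate's own 400 strongest peaks gave a smaller contrast. In replicate 3, 9 of 80 single-promoter summits (11.2%) were at or downstream of the start, against 15.9% of its 4000 strongest. In replicate 4 it was 7 of 96 (7.29%), against 17.9%.

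The annotation around the summit followed the same order. It is tied to position, since a summit at or just downstream of a start lies inside that gene. It was not examined in each replicate's own list. Of the 90, 80 (88.9%) had their summit outside any protein-coding gene, 3 in an exon and 3 in an intron of the gene itself, 3 in an intron and 1 in an exon of another gene. The share outside protein-coding genes was 57.5% at ranks 401 to 1000 and between 48.6% and 52.8% in every lower class of ranks. Over all 685 it was 382 (55.8%), with 137 (20%) in an exon and 99 (14.5%) in an intron of the gene, and over the weaker peaks 51.6%. An exon or intron of the gene can hold a summit upstream of a start because many genes have several starts.

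**Figure D2:**
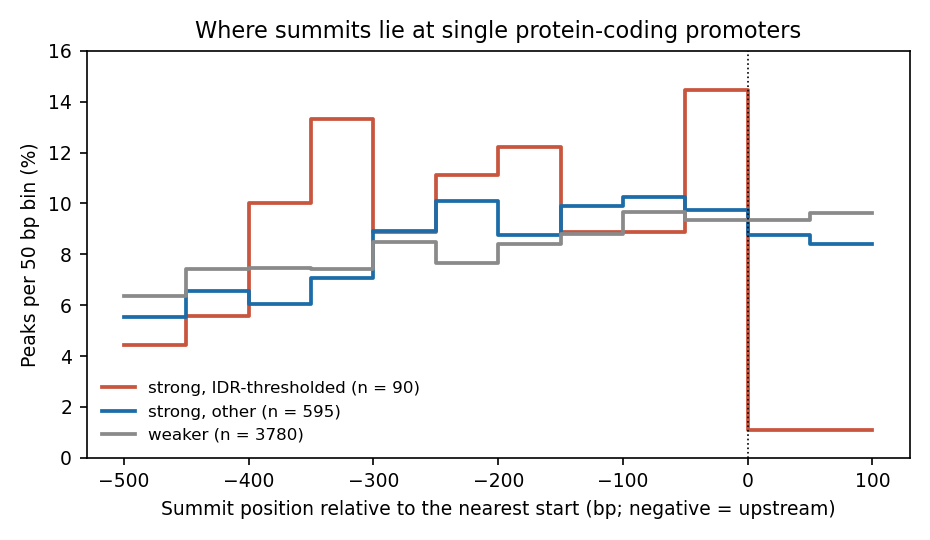
Summit position relative to the nearest protein-coding start (horizontal axis, bp, negative is upstream) as the percent of peaks in each 50 bp bin (vertical axis), for the 90 IDR-thresholded strong peaks, the other 595 strong peaks and the 3780 weaker peaks. The line of the 90 falls to 2 peaks in all past the start, while the other lines run on without a step.

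Nearly all of the peaks overlapped a peak of both replicate lists, which hold 30000 peaks each, but not with equal strength. A peak of replicate 3 overlapped 664 (96.9%) by at least 1 bp, a peak of replicate 4 overlapped 667 (97.4%), and both overlapped 646 (94.3%, 92.3 to 95.8). The background over the 3983 nuclear peaks is 93%, so the single promoters were near it. Of the 3780 weaker peaks, only 1565 (41.4%) overlapped a peak of both lists, and 220 overlapped a peak of neither. The pooled list was made from the same replicates, so this overlap is not independent. With each replicate's summit required within 100 bp of the pooled summit, both replicates had a peak at 77.8%. Of the 685, 229 (33.4%, 29.999 to 37.05) overlapped one of the 4000 strongest of both replicates, beside a background of 28.9%. The share was 48.1% (38.8 to 57.5) at the strong divergent promoters and 23.9% at the strong peaks with no start. For 85 of the 685 neither replicate had the peak among its own 4000 strongest, beside 536 of the 3983 nuclear peaks. In all, 18 members share a replicate 3 peak and 18 a replicate 4 peak with another member, as the pair at cox-5B, a cytochrome c oxidase subunit gene, does.

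Summits called in the replicates were 42 bp apart at the median over the 646, and 356 (55.1%) were within 50 bp of each other. For weaker peaks found in both lists the median gap was 117 bp and 28.9% were within 50 bp. Over the 3983 nuclear peaks of the 4000 the values were 47 bp and 51.7%, near those of the single promoters. They were 19 bp and 69.7% at strong divergent promoters, and 51 bp and 49.7% at strong peaks with no start. The replicates' log2 signal values correlated only weakly over the 646 (Pearson 0.24, Spearman 0.094), a description across peaks whose range was cut by the choice on pooled signal.

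Several of the strong peaks ranked far apart in the replicates, or overlapped a peak of only 1 of them. At vha-12, a subunit of the V-ATPase proton pump, the pooled signal was 138, and the peak ranked 92 in replicate 4 but 7041 in replicate 3. The vha-12 peak was nonetheless in the IDR-thresholded list. At set-2, a histone H3 lysine methyltransferase gene, the pooled signal was 106, and the peak ranked 6696 in replicate 3 and 185 in replicate 4. The lysyl-tRNA synthetase gene kars-1, at 90.5, ranked 7461 and 375. The reverse held for hsp-1, a constitutive heat shock protein gene, ranked 256 in replicate 3 and 1739 in replicate 4. It held more widely for T22C1.1, ranked 168 in replicate 3 and 19362 in replicate 4, and for lrpr-1, ranked 132 and 28611. The splicing factor gene rsp-1 and the chemoreceptor gene srw-144 had no overlapping replicate 3 peak, and rpoa-1, the gene of the largest subunit of RNA polymerase I, had no overlapping replicate 4 peak.

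**Figure D3:**
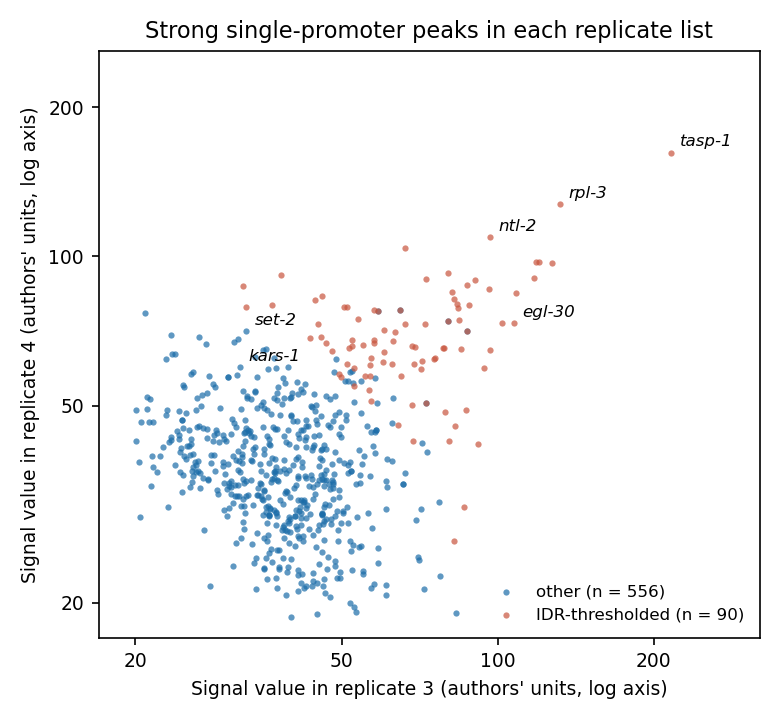
Signal value of the overlapping peak in replicate 3 (horizontal, authors' unit, log axis) and replicate 4 (vertical, authors' unit, log axis) for the 646 strong single-promoter peaks found in both lists, red for the 90 IDR-thresholded ones. Only the top of the range, led by tasp-1 and rpl-3, is high in both, and the cloud below has no clear trend.

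The summit windows were richer in G and C than the sequence around them. Over 75 bp on either side the median GC content was 41.1% (quartiles 35.8 to 48.3), against 34.4% for the same windows moved 300 bp upstream and 36.4% moved 300 bp downstream. It was 35.8% at weaker peaks. Strong peaks away from promoters had the same median, 41.1%, and strong divergent promoters 42.1%. GC content fell with rank, from 48.3% for members ranked 1 to 400 through 43.0% and 42.4% to 39.1% at ranks 2001 to 4000. The strongest 4000 of each replicate gave 41.7% and 41.1%, and their weaker peaks 36.4% and 35.8%. The scores were not corrected here for any effect of GC content on recovery, whose part in the result was not tested.

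Of all words of 6 bases, a GAGA word had the largest excess at strong over weaker peaks. GAGAGA, read on either strand, lay in 160 of the 685 windows (23.4%, 20.3 to 26.7), beside a background of 10.6% over all nuclear pooled summit windows. Weaker peaks had it in 12.7% (11.7 to 13.8), strong divergent promoters in 15.1% and strong peaks with no start in 15.3%. Same-length windows centred 178 bp upstream of the 5′ end of each of the 19973 nuclear protein-coding genes had it in 11.4%. Among 2080 words compared, its excess over weaker peaks was the highest, at 10.6 percentage points, followed by the overlapping words CGAGAG (13.9% against 5.21%) and AGAGAG (19.4% against 11.5%). At the other end was AAAAAT, in 36.5% against 50.8%.

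The share with the word was highest at the summit. Its share was 10.7% and 10.1% in windows 450 and 300 bp upstream of the summit, 17.7% at 150 bp upstream, 23.4% at the summit, 14.5% at 150 bp downstream, and 9.93% and 8.03% beyond. At weaker peaks it peaked lower, at 12.7%. On the strand of the gene it read GAGAGA alone in 50 windows, TCTCTC alone in 95 and both in 15. Weaker peaks leaned the same way, with 148, 316 and 17 windows. The share fell with rank, from 28.9% at ranks 1 to 400 to 18.9% at ranks 2001 to 4000 and 11.9% at the end of the list. In each replicate's own list the 4000 strongest held it at 20.7% and 21.0% of single promoters, and weaker peaks at 12.7% and 12.3%.

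The difference was present mainly in the GC-rich windows. Among windows of at least 50% GC the word was in 54 of 127 strong peaks (42.5%) and in 27.1% of weaker ones, and at 45 to 50% GC in 33.3% and 21.9%. At 40 to 45% GC the shares were 16.2% and 16.4%, and at 35 to 40% GC 18.9% and 13.3%. Below 35% GC they were 8.70% and 7.14%.

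In ratio rather than percentage points other words differed more than GAGAGA, as GAGCGC, in 8.61% against 2.22% at weaker peaks, and CGCCGC, in 8.18% against 2.33%. CTGCGTCT on either strand was in 36 windows (5.26%, 3.82 to 7.19), against 2.33% at weaker peaks and 2.01% in the windows upstream of all genes. Its share too fell away from the summit, to 1.90% at 300 bp upstream and 0.876% at 300 bp downstream. The GC box CCGCCC was in 44 (6.42%, 4.82 to 8.51), against 4.10% and 3.605%. The share at strong divergent promoters was 7.55% for each of the last 2 words. Fewer strong peaks held the TATA box TATAAA, at 13.3% against 17.5% at weaker peaks and 19.5% in the windows upstream of all genes. A run of 8 thymines, TTTTTTTT, was in 41 windows (5.99%, 4.44 to 8.02), against 11.5% and 19.1%, and its share rose to 17.5% at 450 bp upstream. Strong divergent promoters and strong peaks with no start were as low or lower, at 7.55% and 9.65% for the TATA box and 5.66% and 5.56% for the thymine run. The E-box CACGTG was in 3.21% against 3.25%, GATAAG in 7.30% against 9.18%, TTTCAG in 17.4% against 23.0%, the CRE palindrome TGACGTCA in 0.730% against 0.635%, and GGCGCGAA in 0.438% against 0.265%. All were searched on both strands.

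**Figure D4:**
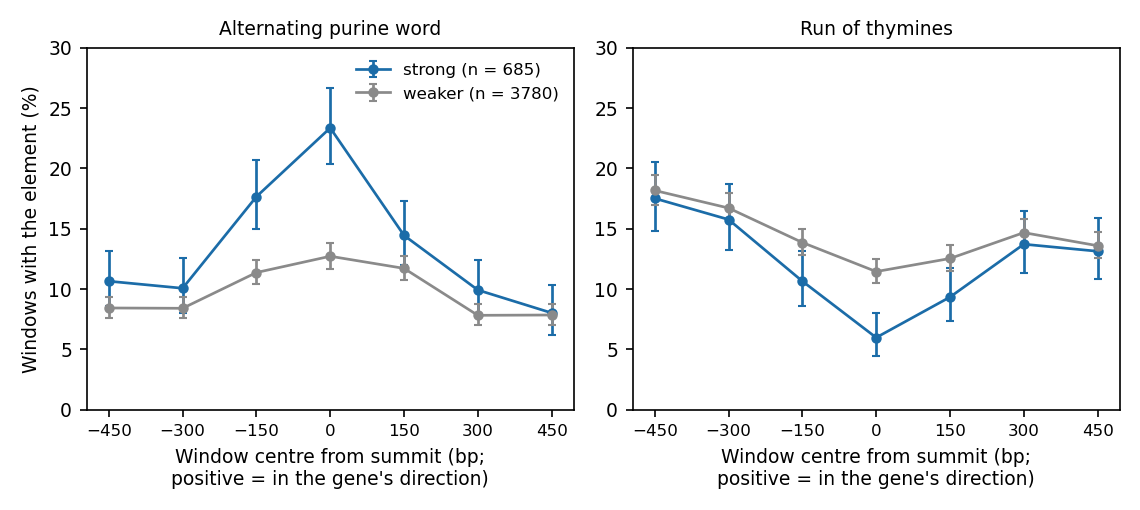
Percent of windows of 75 bp on either side (vertical axis) that hold the GAGA word (left) or a run of 8 thymines (right), by distance of the window centre from the summit (horizontal axis, bp, positive in the gene's direction), for the 685 strong and 3780 weaker peaks, with 95% Wilson intervals. The GAGA word reaches 23.4% and the thymine run falls to 5.99% at the summit of the strong peaks.

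The 685 peaks lay at 665 genes, 3.33% of the 19973 nuclear protein-coding genes, and 28 genes had more than 1 of them. The gene lit-1, a Nemo-like kinase of the Wnt pathway, had 3. The ER chaperone gene hsp-3 had peaks of 161 and 64.2, and pab-2, a poly(A)-binding protein gene, 154 and 96.3. More than 1 annotated start was present at 51.1% of the 665 genes, 41.4% of genes at weaker peaks and 27.4% of all. A gene with more starts offers more promoter to meet the rule, at strong and weaker peaks alike, and its part in these shares was not tested. Genes named only by their sequence were 34.9% of the 665, against 42.0% at weaker peaks and 45.4% of all.

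Among 28 gene lists by worm gene class, the intervals of chaperones, cytosolic ribosomal proteins, nuclear hormone receptors, other transcription factors, the ubiquitin system and the cytoskeleton lay above the 3.33%, and those of chemoreceptors and F-box genes below it. Of 59 chaperone genes, 7 had a strong peak (11.9%, 5.87 to 22.5): dnj-13, hsp-3, hsp-1, dnj-9, dnj-20, hsp-17 and dnj-18. Of 81 cytosolic ribosomal protein genes, 6 did (7.41%, 3.44 to 15.2), led by rpl-3, rpl-35 and rps-24 at 256, 214 and 126. A further 9 ribosomal protein genes were at strong divergent promoters, which the rule leaves out. Among translation factors 3 of 36 had one (8.33%, 2.87 to 21.8), with eef-1A.2, an elongation factor, at 130 and the initiation factor genes eif-3.E at 127 and eif-3.B at 92.3. Aminoacyl-tRNA synthetases had 3 of 32 (kars-1, mars-1 and iars-2), the ubiquitin system 3 of 28 (ubq-1, uba-5 and ubc-9), and the V-ATPase 2 of 20. The intervals of the small lists are wide, and no allowance was made for the number of lists compared. The lower bound for ribosomal proteins, 3.44%, was close to the 3.33%. Counts were 1 of 33 for the proteasome, 1 of 38 for the mitochondrial respiratory chain, 2 of 70 for mitochondrial ribosomal proteins, 1 of 41 for small GTPases, 1 of 26 for the nuclear pore and 1 of 72 for histones.

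The transcription factor lists differed from each other. Of 269 nuclear hormone receptor genes, 16 had a strong peak (5.95%, 3.69 to 9.44), the strongest at nhr-35 (95.6), nhr-48 (91.5) and nhr-46 (84.8), with none in the IDR-thresholded list. Other transcription factors had 12 of 123 (9.76%, 5.67 to 16.3). Median signals at the members of these lists were 74.1 and 76.1, close to the 76.02 over all 685. In this list ztf-7, a zinc finger gene, reached 113 with 56.6 in replicate 3 and 57.3 in replicate 4, hlh-30, the worm TFEB of autophagy and lysosome genes, reached 95.6, and tbx-2, a T-box gene, 85.4. Weaker peaks lay at 25.3% and 27.6% of these lists, beside 17.2% of all genes. Homeobox genes of the ceh class had 1 strong peak among 63 genes, at ceh-14, and weaker peaks at 27.0%. Of 81 chromatin regulator genes 4 had a strong peak (4.94%, 1.94 to 12.02), namely the methyltransferase genes set-2, met-2 (83.2) and met-1 (74.1), and jmjd-3.3, of the jumonji demethylase family.

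Structural genes were mixed. The muscle and cytoskeleton list had 4 of 38 (10.5%, 4.17 to 24.1): myo-3, a body wall muscle myosin (76.3), act-5, an intestinal actin (76.03), tbb-6, a tubulin (67.0), and unc-15, paramyosin. Cuticle collagens had 4 of 161 (2.48%, 0.970 to 6.21), led by col-34 at 77.2, col-184 at 69.2 and sqt-2 at 68.2. For splicing and RNA binding the count was 3 of 50 (prp-8 at 89.2, hrpk-1 at 81.0 and rsp-1 at 71.4). RNA polymerase and general transcription factor genes gave 4 of 69, with rpac-19 at 88.3, rpoa-1 at 75.3 and taf-8 at 73.5.

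Chemoreceptor genes numbered 1309, and 13 had a strong peak (0.993%, 0.581 to 1.69), led by srj-21 (89.8), srh-2 (81.8) and srw-144 (81.7). F-box genes had 4 of 322 (1.24%, 0.484 to 3.15), with fbxb-72 at 119 in the IDR-thresholded list, fbxa-35 at 69.5 and fbxa-108 at 67.4. C-type lectin genes, many of them defence genes, had 6 of 240 (2.5%, 1.15 to 5.35), the strongest at clec-169 (96.3), clec-7 (80.5) and clec-228 (72.5). Detoxification enzymes had 7 of 185 (3.78%, 1.84 to 7.603), with the glutathione S-transferase genes gst-1, gst-9 and gst-13 at 92.3, 87.3 and 82.8. Channels had 3 of 132, twk-43 (81.2), twk-11 (72.9) and lgc-47 (63.3).

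None of the 22 antimicrobial peptide genes, 69 neuropeptide genes or 31 major sperm protein genes had a strong single-promoter peak, which allows shares of up to 14.9%, 5.27% and 11.03% by the Wilson interval and does not exclude the 3.33% of all genes. Weaker peaks lay at 4 of the 22 antimicrobial peptide genes (18.2%), near the 17.2% of all genes. The strongest of these was at cnc-8, with a signal of 51.3 at rank 9394, and nlp-32, cnc-10 and cnc-4 had 47.8, 44.3 and 43.9. Their q-values ran from 0.652 to 0.719. The peaks at nlp-32 and cnc-4 overlapped no replicate 4 peak, and that at cnc-10 ranked 29861 in replicate 3. The worms were not labelled as infected. The gene akir-1 itself had neither a strong nor a weaker single-promoter peak.

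**Figure D5:**
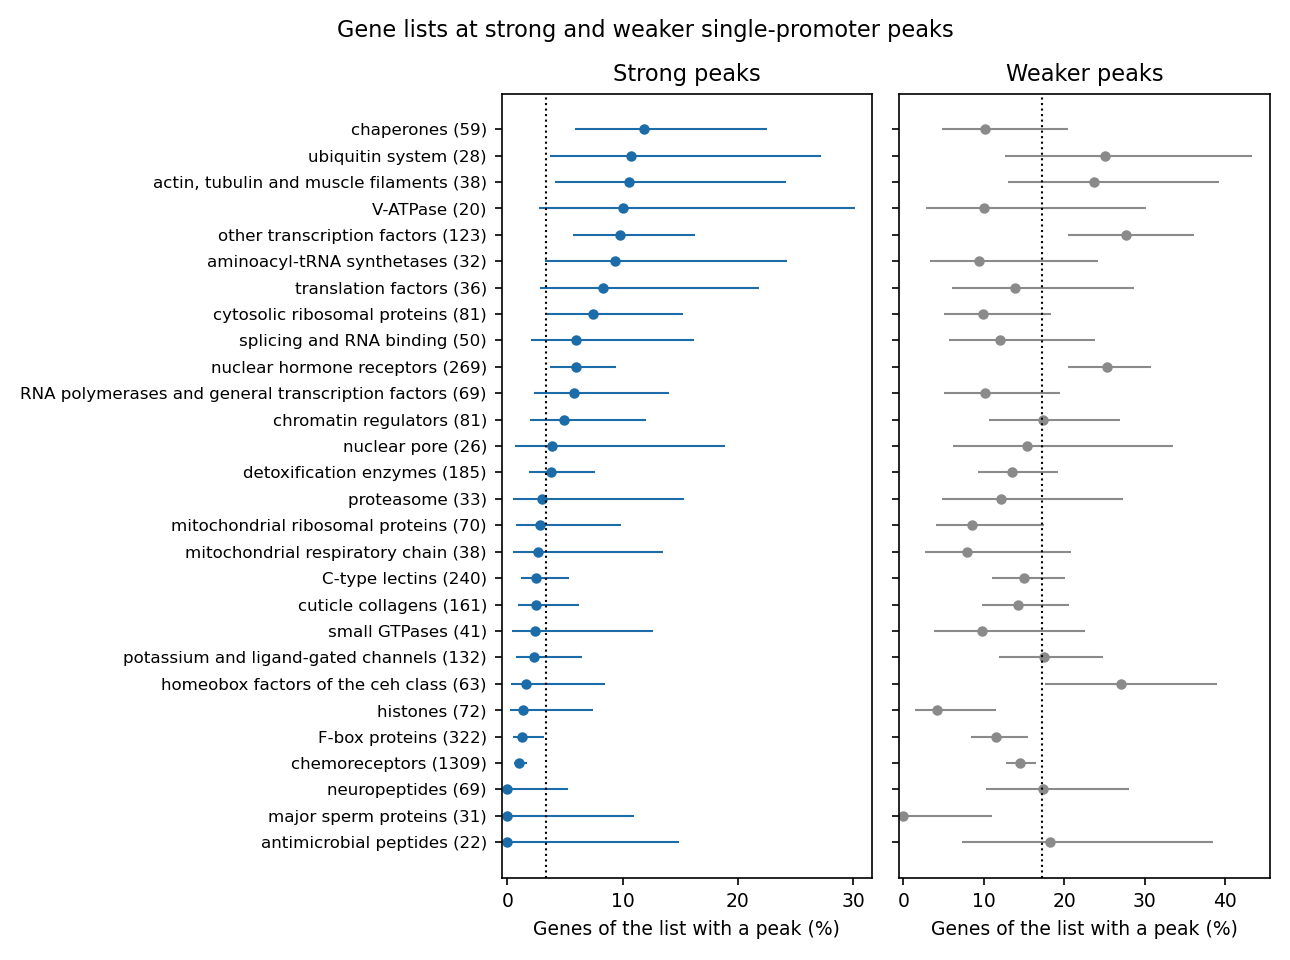
Percent of the genes of each list (horizontal axes, list size in brackets) with a strong (left, blue) or a weaker (right, grey) single-promoter peak, with 95% Wilson intervals; the dotted lines are the shares of all nuclear protein-coding genes, 3.33% and 17.2%. Chaperones lead on the left at 11.9%, and chemoreceptors are at 0.993%.

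The shares on chromosomes X and IV were those whose intervals did not include the share of genes. Chromosome X held 144 of the 685 (21.0%, 18.1 to 24.2) and 13.7% of protein-coding genes, but weaker peaks had a like share, 21.8%. Chromosome III held 14.6% (12.2 to 17.4) against 10.2% of weaker peaks and 13.2% of genes, and chromosome IV 12.7% (10.4 to 15.4) against 16.2% and 16.4%. On the autosomes 369 of 541 (68.2%) lay in the central 50% of the chromosome, against 64.5% of weaker peaks and 55.7% of genes. The genes lay on the plus strand for 360 peaks and on the minus strand for 325.

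Repeated sequence touched few of the peaks. A 36-base word found elsewhere in the genome was present in 29 windows (4.23%), against 4.05% at weaker peaks, but in 11 of the 90 at the top (12.2%). It filled the whole window in 2. Without the 29, the share with the GAGA word was 23.6%. Peak width was 380 bp in 682 of the 685, and the 3 narrower ones were among the 4 strongest, at tasp-1, rpl-3 and mog-4.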

How the data were processed

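Chromatin immunoprecipitation of AKIR-1::GFP was sequenced in 2 replicates, and the peak lists that the authors deposited are on ce11. There is 1 for either replicate, 1 for the pool, and 1 thresholded by IDR and derived from the others, per the submitters' texts deposited with the files. All calls used 1 further alignment set. Aligner, peak caller and IDR threshold: not given in the sources used here. Signal values are those the authors deposited, on an unstated scale, so signal served only for ranks and descriptions within 1 list. A −log10 q-value per peak, also as deposited by the authors, was turned into a q-value. Other deposited columns give the summit offset. The lists hold no reads, so depth and counting error of reads are unknown.

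Peaks were classified by summit against Ensembl release 115 of the same assembly, where a start is the start of any protein-coding transcript, and distances are to the nearest start that met the rule. Sequence and repeated 36-base words came from the RefSeq genome. Replicate peaks overlapped by at least 1 bp, the strongest being kept. GC content and 10 words were read 75 bp on either side of summits, and windows are printed for chromosomes other than I. Shares have 95% Wilson intervals, and no test was made, as the design has 1 group. The members, the 28 gene lists and the comparisons were chosen with earlier results of these data known. Named genes are those at the 12 strongest members, the 3 strongest of each list with at least 3 genes at members, the 2 peaks on each side of the limit of 4000, and akir-1. Other names (the printed GAGA windows, genes with several peaks, IDR-thresholded peaks past the start, peaks uneven between replicates, and whole short lists) were chosen after their values were seen. Alternatives were other numbers of peaks, other promoters, gene starts only, other distances and overlaps, other windows and each replicate's own list. The classification was tested on simulated data. The tools were pandas 2.3.3, numpy 2.4.6, matplotlib 3.10.9 and scipy 1.17.1 under Python 3.11.15.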

Additional observations from a re-analysis of the deposited data

How the results depend on the processing

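No paired analysis was possible because the design has 1 group. The number of peaks depends on the rule: 389 of the 2000 and 1290 of the 8000 strongest, 527 by 5′ ends of genes only, 454 with promoters reaching 250 bp up and 50 bp down, 1067 with 1000 and 200 bp, 90 in the IDR-thresholded list, and 647 to 694 in a single replicate's list. In the same settings of promoter and list, the median summit was 106.5, 282 and 216 bp upstream, 205 bp by the farthest start, and 177.5 to 193 bp by a single replicate. Overlap with both replicates was 97.7% for the 2000 and 86.5% for the 8000 strongest, 92.7% with the long promoter, 100% in the IDR-thresholded list, 89.8% with reciprocal overlap of at least 50% and 77.8% with summits within 100 bp. From 73.6 to 75.4% of a single replicate's peaks overlapped the other's. The share on X was 21.6% and 22.9% for the 2000 and 8000 strongest, 20.3% by 5′ ends of genes, 18.1% and 22.1% with the short and long promoter, 21.2% with small RNA starts kept 1000 bp away, 20% in the IDR-thresholded list, 21.3% without repeated words and 21.9% in either replicate. Median GC content was 43.7%, 39.7%, 40.4%, 41.7% and 48.3% for the 2000, the 8000, 5′ ends of genes, the short promoter and the IDR-thresholded list, 42.6% and 39.9% with windows of 50 and 150 bp on either side, and 41.1 to 41.7% by replicate. Ribosomal protein genes numbered 2 with the short promoter, 7 with the long one, 8 for the 8000 strongest and 3 in the IDR-thresholded list. They numbered 5 without repeated words and 6 to 7 by replicate. The GAGA share, whose alternatives were added after the data were seen, ran from 17.2 to 34.5% as the window grew. Of 77 alternatives in all, 28 left a value within the replicate spread or a count within 1.5 times. The causes were not tested. With 2 replicates that spread is poorly known, and without read counts neither depth nor input signal could be weighed.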
